A study of Homo sapiens with 12 samples.

Results

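The transcripts described here are 10 noncoding host transcripts of small nucleolar RNAs (snoRNAs): SNHG1, SNHG3, SNHG5, SNHG6, SNHG7, SNHG8, SNHG12, SNHG15, SNHG16 and GAS5. They were taken by gene symbol from the raw count table, where they fill 10 of 42157 gene rows. In 9 of them every library held at least 1164 reads and at most 21857, and these 9 passed the filter on low counts, whereas SNHG3 had 0 reads in all 12 libraries. The cells were HL-60, an established human acute myeloid leukemia (AML) line of promyelocytic character, cultured for 3 h in 4 groups of 3 replicates. The groups were ML-792+DNR (both drugs), DNR (1 µM daunorubicin, an anthracycline that intercalates into DNA and poisons topoisomerase II), ML-792 (0.5 µM of an inhibitor of the SUMO-activating enzyme) and DMSO (the mock treatment). Polyadenylated RNA was sequenced, and the study asked how far blocking the attachment of SUMO, a small ubiquitin-like protein modifier, alters the early transcriptional response to DNR.

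A snoRNA host gene is transcribed by RNA polymerase II and its introns carry snoRNAs, which are trimmed out of the excised introns. Box C/D snoRNAs guide 2′-O-methylation and box H/ACA snoRNAs guide pseudouridylation, mainly of ribosomal RNA. The spliced exons of many such hosts code for no long protein, are scanned by ribosomes all the same and are short-lived because nonsense-mediated decay removes them. Many hosts also start with a run of pyrimidines, the 5′ terminal oligopyrimidine (TOP) motif that they share with the messengers of ribosomal proteins. GAS5 was named as a growth arrest-specific transcript that accumulates when translation or growth stops.

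In the RefSeq annotation the 10 hosts carry 36 snoRNAs in all, 25 of box C/D, 10 of box H/ACA and 1 whose name gives no class. GAS5 hosts 11 of them and SNHG1 hosts 9, SNHG12 hosts 4 and SNHG16 hosts 3, while SNHG3, SNHG5 and SNHG7 host 2 each and SNHG6, SNHG8 and SNHG15 host 1 each. Of these snoRNAs, 35 have a row of their own in the count table and 0 have a read in any library. All values below are therefore counts of the host genes, and no snoRNA was measured. Why these rows are empty was not tested. Host counts may include reads from exons annotated over a snoRNA, as GAS5 exons overlap SNORD78 by 65 bases. The following 4 snoRNAs, read from the GRCh37 genome in the orientation of their hosts, show what the introns hold. Capitals mark the boxes found by their letters: TGATGA (box C) within the first 20 bases, CTGA (box D) near the 3′ end, and ACA followed by the last 3 bases (box H/ACA).
SNORD1B, in SNHG16: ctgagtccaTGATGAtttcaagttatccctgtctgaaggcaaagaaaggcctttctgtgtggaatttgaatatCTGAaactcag
SNORD78, in GAS5: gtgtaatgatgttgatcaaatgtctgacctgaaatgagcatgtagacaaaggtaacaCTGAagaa
SNORD99, in SNHG12: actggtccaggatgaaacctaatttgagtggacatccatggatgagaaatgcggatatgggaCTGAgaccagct
SNORA73B, in SNHG3: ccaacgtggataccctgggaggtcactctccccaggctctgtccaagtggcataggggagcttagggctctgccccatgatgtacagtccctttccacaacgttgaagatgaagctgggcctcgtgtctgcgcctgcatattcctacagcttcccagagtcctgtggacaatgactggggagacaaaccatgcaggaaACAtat
They lie at chr17:74557191-74557274 (plus strand), chr1:173834760-173834824 (minus strand), chr1:28905261-28905334 (minus strand) and chr1:28835071-28835274 (plus strand).

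The start sites of 8 of the 10 hosts were matched in the RefSeq table (build GRCh38.p14). The windows of 40 bases shown here begin 15 bases before the annotated first base, and capitals mark the unbroken run of C and T that covers this base.
SNHG1: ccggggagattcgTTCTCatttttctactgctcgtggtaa
SNHG5: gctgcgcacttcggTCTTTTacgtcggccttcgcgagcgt
SNHG7: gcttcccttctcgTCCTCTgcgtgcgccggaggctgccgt
SNHG8: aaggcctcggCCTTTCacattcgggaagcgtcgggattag
SNHG12: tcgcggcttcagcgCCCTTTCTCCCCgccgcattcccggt
Runs were counted on both sides of the annotated first base, so their lengths are not those of transcribed tracts. That of SNHG8 ends at this base. A run of at least 5 pyrimidines covered the annotated start in these 5 of the 8 windows, with lengths of 5, 6, 6, 6 and 12 bases. The same was found at 9.60% of all 35116 annotated RefSeq starts and at 61.2% of the 85 starts of ribosomal protein genes. The annotated starts of SNHG3, SNHG16 and GAS5 fell on a purine, so that no run covered them. Only the first listed start of each host was read, so a run at another start is not excluded. CACGTG, the canonical E-box and its own reverse complement, was searched for in the whole promoter window of 300 bases (250 before the annotated start and 50 from it on), and was found in that of SNHG7 alone of the 8, outside the bases shown above, and in 7.26% of all such windows. SNHG6 and SNHG15 are named only.

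The library background was as follows. Reads in genes numbered 28647951 to 46451654 per library, and the 10 hosts together took 0.113% to 0.168% of them. MPO, the myeloperoxidase gene that marks the primary granules of promyelocytic cells, stood at 10090 to 12200 CPM (counts scaled to 1000000 reads in genes, on library sizes scaled by the trimmed mean of M values, TMM), and CD3E, MS4A1, HBB, HBA1 and EPCAM, markers of T, B, erythroid and epithelial cells, were at 0 in all 12 libraries. Replicate 1 stood apart: mitochondrially encoded transcripts took 6.37% of reads in its ML-792+DNR library, 6.27% with DNR, 5.12% with ML-792 and 4.01% with DMSO, against 2.49% to 3.48% in replicates 2 and 3. Mean centred log2 CPM of the 9 measured hosts was lowest in the same DNR-treated cultures, at -0.32 in ML-792+DNR replicate 1 and -0.34 in DNR replicate 1, against -0.06 to 0.08 in the other DNR-treated libraries. Calls of the members that changed in replicates 2 and 3 alone are therefore given beside each DNR result.

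Transcripts are compared between groups by the edgeR quasi-likelihood test fitted to all 12 libraries, with Benjamini-Hochberg adjustment over the 13696 genes tested. A transcript is said to have risen or fallen at an adjusted p below 0.05, whatever the size of the change, and values after ± are SD over 3 libraries for CPM and SE for log2 fold changes. CPM are not divided by transcript length and are compared only within a transcript. A lower value in such bulk libraries cannot tell less RNA per cell from fewer cells that express it.

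**Figure D1:**
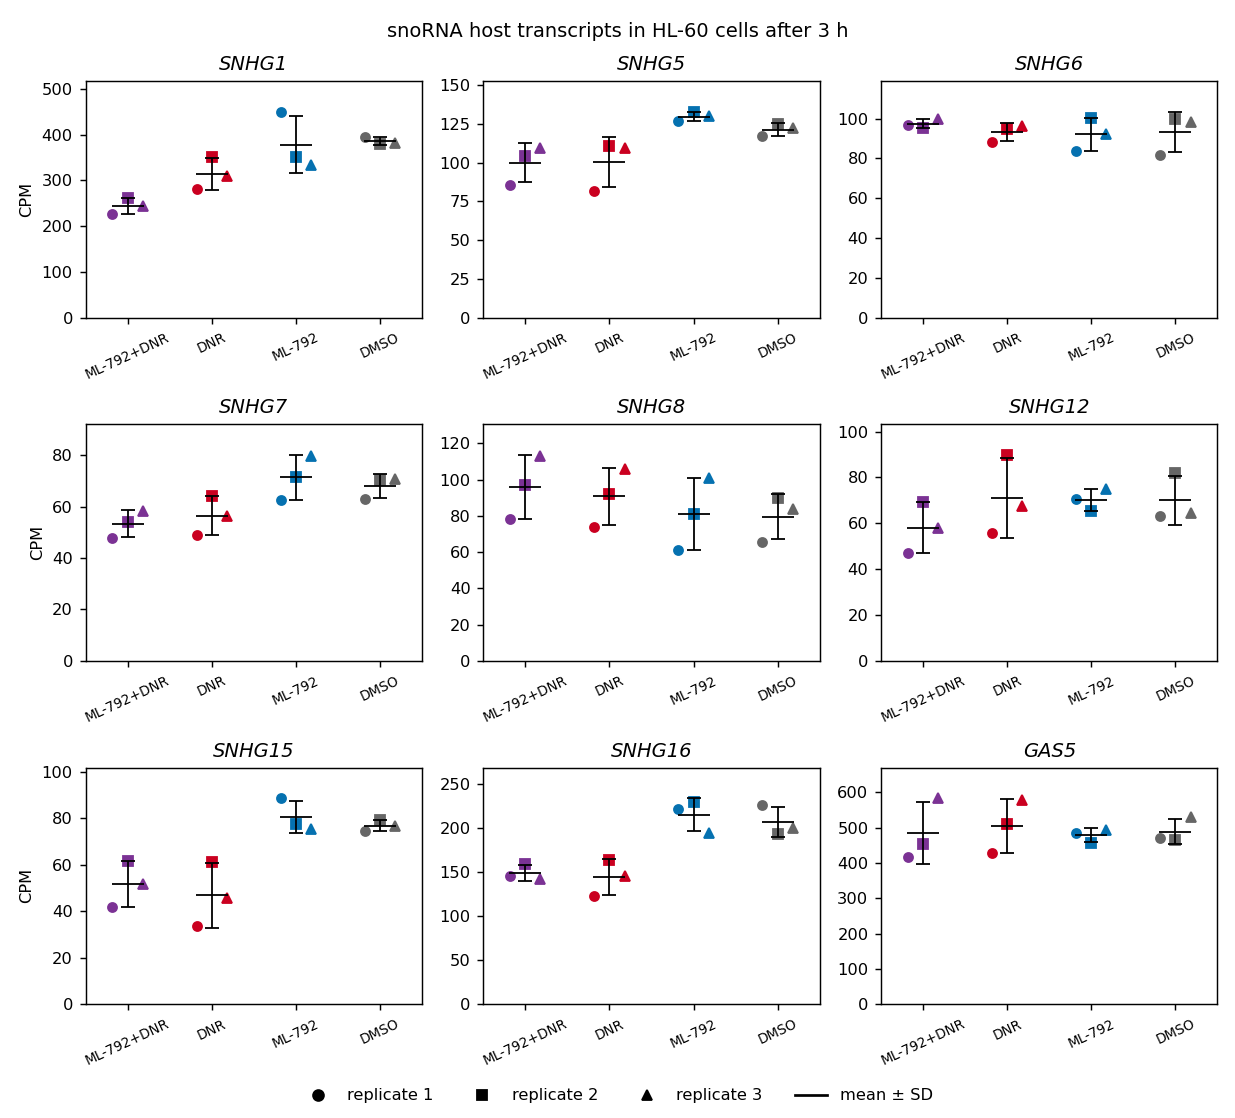
CPM (vertical axis, from 0) of the 9 measured host transcripts in each library of the ML-792+DNR, DNR, ML-792 and DMSO groups (horizontal axis), with circles, squares and triangles for replicates 1, 2 and 3 and bars for the mean ± SD. SNHG5, SNHG15 and SNHG16 of both DNR-treated groups lie below all libraries without DNR, whereas the groups overlap for GAS5, SNHG6, SNHG8 and SNHG12.

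In DNR against DMSO, SNHG15 and SNHG16 fell and no other member passed the test, so that 2 of 9 fell and 0 rose. Over all genes tested, 30.0% passed in this comparison and 15.7% fell, so that the members that fell, 2 of 9, did so at a rate close to the background. The median log2 change of the 9 members was -0.27, against 0.01 for all genes tested. None of the members changed by 2-fold or more (6.98% of all genes did). The libraries of the groups did not overlap for 4 members, all lower with DNR, where 23.6% of all genes were separated in that direction.

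SNHG15, a short-lived host on the minus strand of chromosome 7 (chr7:45022618-45026560, GRCh37), showed the largest change among the members. It stood at 33.5, 61.2 and 45.7 CPM in DNR libraries, against 74.4, 79.1 and 76.7 CPM in DMSO libraries. All 3 DNR values lay below the DMSO values, and they were also more spread out, at 46.8 ± 13.9 CPM with DNR and 76.7 ± 2.38 CPM with DMSO (n = 3 each). The log2 fold change was -0.71 ± 0.18 (95% interval -1.09 to -0.33, adjusted p = 0.00855). Its level thus fell by 39.0%. The call was kept without any 1 library, where the adjusted p was at most 0.0338, and in replicates 2 and 3 alone.

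SNHG16, whose introns carry 3 box C/D snoRNAs including SNORD1B above (chr17:74553809-74667067, plus strand), stood at 123.4, 163.8 and 145.6 CPM in DNR libraries, against 227, 194 and 201 CPM in DMSO libraries. The groups did not overlap. It averaged 144 ± 20.2 CPM with DNR and 207 ± 17.4 CPM with DMSO. The log2 fold change was -0.52 ± 0.10 (interval -0.74 to -0.30, adjusted p = 0.00219). It held without any 1 library (adjusted p at most 0.0117), whereas with replicates 2 and 3 alone the change was -0.36 and missed the threshold (adjusted p = 0.065).

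SNHG1, SNHG5 and SNHG7 lay lower with DNR in the mean and did not pass. SNHG1, the host of 9 snoRNAs with a start 51 bases from the divergent gene SLC3A2 (chr11:62619450-62623425, minus strand), stood at 282, 352 and 311 CPM in DNR libraries, against 396, 380 and 381 CPM in DMSO libraries. Its libraries did not overlap, and the log2 fold change was -0.29 ± 0.11 (adjusted p = 0.0615). SNHG5, host of a pair of box C/D snoRNAs (chr6:86360209-86388650, minus strand), stood at 82.0, 110.5 and 109 CPM in DNR libraries, against 117, 125 and 122 CPM in DMSO libraries. Its log2 fold change was -0.27 ± 0.11 (adjusted p = 0.0848), also without overlap. SNHG7, host of a pair of box H/ACA snoRNAs (chr9:139615818-139622636, minus strand), stood at 48.9, 64.2 and 56.2 CPM in DNR libraries, against 62.8, 70.5 and 70.8 CPM in DMSO libraries. The groups overlapped, and the log2 fold change was -0.27 ± 0.12 (adjusted p = 0.0984). Without DNR replicate 2, the DNR library with the highest value for each of them, SNHG1, SNHG5 and SNHG7 all passed, and 5 members then fell. Over all genes, 2164 of 13994 fell without that library, against 2155 of 13696 with it. SNHG1 also passed without ML-792 replicate 1 (adjusted p = 0.021) or 3 (0.0347) and SNHG5 without ML-792+DNR replicate 1 (0.048), libraries that enter this comparison only through the shared estimate of spread, the count filter and the scaling.

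The remaining 4 members did not pass either, and their groups overlapped. GAS5 (chr1:173827697-173838020, minus strand), the most counted of the 10, stood at 427, 510 and 579 CPM in DNR libraries, against 472, 464 and 530 CPM in DMSO libraries. Its log2 fold change was 0.05 ± 0.13, and the interval of -0.22 to 0.32 leaves out a fall as large as that of SNHG15 or SNHG16. SNHG8 (chr4:119199858-119206471, plus strand), host of 1 box H/ACA snoRNA, changed by 0.19 ± 0.19 (interval -0.21 to 0.59). SNHG12 (chr1:28905050-28909644, minus strand) changed by 0.02 ± 0.17 (interval -0.34 to 0.39) and SNHG6, on chromosome 8, by 0.00 ± 0.09 (interval -0.19 to 0.19). SNHG6 averaged 93.3 ± 4.31 CPM with DNR and 93.3 ± 10.1 CPM with DMSO.

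With both drugs, 4 of 9 members fell relative to DMSO and 0 rose. Over all genes, 35.4% passed and 18.4% fell. The median of the members was -0.28, against 0.02 for all genes, and 0 members reached 2-fold (6.48% of all genes did). Groups did not overlap for 5 members, all lower with both drugs (24.5% of all genes downward). The comparisons with DMSO share the same 3 DMSO libraries and are not independent of each other.

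SNHG1 had the largest change of these. It stood at 226, 261 and 243 CPM in ML-792+DNR libraries, against 396, 380 and 381 CPM in DMSO libraries. The log2 fold change was -0.66 ± 0.11 (interval -0.90 to -0.42, adjusted p = 0.000626). The other 3 that fell were SNHG15 (-0.57 ± 0.18, adjusted p = 0.0235), SNHG16 (-0.47 ± 0.10, adjusted p = 0.00375) and SNHG7 (-0.35 ± 0.12, adjusted p = 0.0315). SNHG5 had a similar mean change to SNHG7's but missed the threshold (-0.28 ± 0.11, adjusted p = 0.0674). SNHG1 and SNHG16 kept their calls without any 1 library and in replicates 2 and 3 alone, whereas SNHG7 and SNHG15 did not: without ML-792+DNR replicate 1 the adjusted p was 0.116 for SNHG7 and 0.102 for SNHG15, and 2 members remained called. Their calls were also both lost without DMSO replicate 2 or 3 (adjusted p 0.0809 and 0.0878 for SNHG7, 0.0573 and 0.0523 for SNHG15), SNHG7's without ML-792+DNR replicate 2 (0.0506) and SNHG15's without ML-792+DNR replicate 3 (0.0602). Over all genes, 1836 fell without ML-792+DNR replicate 1, 2701 without replicate 2 and 2103 without replicate 3 of that group. Without DMSO replicate 2 or 3, 2269 and 2118 fell, against 2515 with all libraries. SNHG5 passed without DNR replicate 1 (0.0222). With the replicate number as a block, SNHG5 fell as well (-0.29, adjusted p = 0.0103) and SNHG8 rose (0.26, adjusted p = 0.0142), which gives 5 that fell and 1 that rose. The block raised calls over all 13696 genes too, to 3361 that rose and 3347 that fell, against 2328 and 2515 without it.

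The effect of DNR in the presence of the SUMO inhibitor was read from ML-792+DNR against ML-792. Here 5 of 9 members fell and 0 rose (33.8% of all genes passed and 17.4% fell). The median of the members was -0.37, against 0.02 for all genes. All 5 were also separated without overlap (21.5% of all genes downward), and 0 reached 2-fold (6.34% of all genes did). SNHG1 stood at 226, 261 and 243 CPM in ML-792+DNR libraries, against 450, 351 and 334 CPM in ML-792 libraries (log2 fold change -0.64 ± 0.11, adjusted p = 0.000895). SNHG15 stood at 41.9, 61.5 and 51.8 CPM in ML-792+DNR libraries, against 88.5, 77.6 and 75.5 CPM in ML-792 libraries (-0.64 ± 0.18, adjusted p = 0.0142). For both transcripts the highest treated library stayed below the lowest ML-792 library.

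SNHG16 stood at 146, 159 and 142 CPM in ML-792+DNR libraries, against 222, 230 and 195 CPM in ML-792 libraries (-0.53 ± 0.10, adjusted p = 0.00199). SNHG7 stood at 47.7, 53.9 and 58.3 CPM in ML-792+DNR libraries, against 62.6, 71.7 and 79.8 CPM in ML-792 libraries (-0.42 ± 0.12, adjusted p = 0.0142). SNHG5 stood at 85.8, 104 and 110 CPM in ML-792+DNR libraries, against 127, 133 and 130 CPM in ML-792 libraries (-0.37 ± 0.11, adjusted p = 0.0203). The lowest ML-792+DNR library was replicate 1 for SNHG1, SNHG5, SNHG7 and SNHG15 but replicate 3 for SNHG16. Without that replicate 1, 2 members stayed called (SNHG1 and SNHG16), and the adjusted p was 0.0857 for SNHG5, 0.0606 for SNHG7 and 0.0661 for SNHG15. Leaving out ML-792 replicate 2 ended the call of SNHG5 (0.0572), leaving out ML-792 replicate 1 that of SNHG15 (0.0505), and in replicates 2 and 3 alone SNHG15 missed the threshold (0.0724). Over all genes, 1673 fell without ML-792+DNR replicate 1, against 2389 with all libraries. Without ML-792 replicate 2 or 1, 2001 and 1849 fell, and in replicates 2 and 3 alone 996 did. With the replicate block SNHG8 rose (0.25, adjusted p = 0.0174), which gives 5 that fell and 1 that rose. Over all 13696 genes, 3203 rose and 3187 fell with the block, against 2237 and 2389 without it.

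GAS5, SNHG6, SNHG8 and SNHG12 did not pass in this comparison either. GAS5 stood at 416, 454 and 582 CPM in ML-792+DNR libraries, against 484, 456 and 494 CPM in ML-792 libraries, with a log2 fold change of 0.02 ± 0.13 (interval -0.25 to 0.29). SNHG6 changed by 0.08 ± 0.09 (interval -0.11 to 0.27). SNHG8 stood at 78.1, 96.9 and 113 CPM with both drugs and 61.2, 81.2 and 101 CPM with ML-792, so that within each group replicate 1 was the lowest (0.24 ± 0.19, interval -0.16 to 0.65). SNHG12 changed by -0.27 ± 0.17 (interval -0.63 to 0.09), and its ML-792+DNR and ML-792 libraries overlapped.

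**Figure D2:**
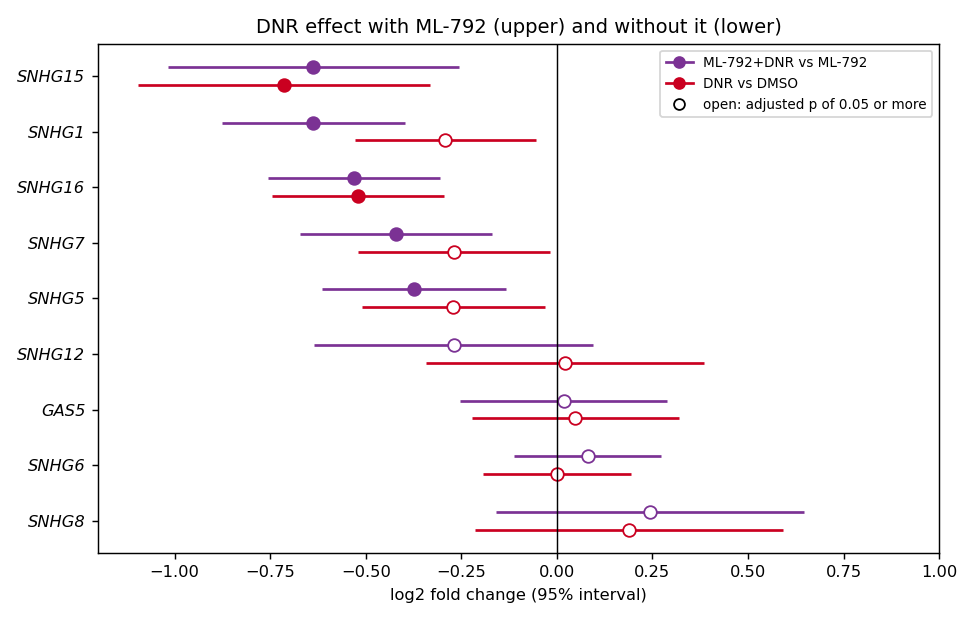
Log2 fold change (horizontal axis, points, with the 95% interval as a line) of each measured host in ML-792+DNR against ML-792 and in DNR against DMSO, filled where the adjusted p was below 0.05. SNHG15 and SNHG16 are filled in both comparisons, SNHG1, SNHG5 and SNHG7 only in the presence of ML-792, and the intervals of GAS5, SNHG6, SNHG8 and SNHG12 cross 0.

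Passing with ML-792 and not without it does not show that the DNR effect differed, and the difference itself was tested by the interaction term. No member passed it by edgeR, DESeq2 or limma voom (0% of all genes passed with edgeR, where 493 genes had an unadjusted p below 0.05). The members' interaction terms ran from -0.35 to 0.08 on the log2 scale, with a median of -0.03. SNHG1 had the largest, -0.35 ± 0.16 (interval -0.68 to -0.01), and was the only member of 9 with an unadjusted p below 0.05 (0.0446, adjusted p = 0.999). Those of SNHG5 (-0.10 ± 0.16) and SNHG7 (-0.15 ± 0.16) were below their SE.

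No member passed with ML-792 alone. Against DMSO the log2 fold changes ran from -0.03 for GAS5 to 0.10 for SNHG5, with a median of 0.03, and 0 of 9 passed by edgeR, DESeq2 or limma voom (0.241% of all genes by edgeR). No member had an unadjusted p below 0.05. SNHG5 was the only member whose groups did not overlap, at 127, 133 and 130 CPM in ML-792 libraries, against 117, 125 and 122 CPM in DMSO libraries (4.51% of all genes were separated upward). For SNHG15 the interval was -0.31 to 0.45 and for GAS5 -0.30 to 0.24.

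Adding ML-792 to DNR also left 0 of 9 members called relative to DNR alone, by edgeR, DESeq2 or limma voom (0.745% of all genes passed by edgeR). SNHG1 stood at 226, 261 and 243 CPM in ML-792+DNR libraries, against 282, 352 and 311 CPM in DNR libraries. It was the only member whose groups did not overlap (9.86% of all genes were separated downward) and the only one with an unadjusted edgeR p below 0.05 (0.00488). Its log2 fold change was -0.37 ± 0.11 (edgeR adjusted p = 0.164), and with no count filter it passed (edgeR adjusted p = 0.0455). The other 8 ran from -0.29 for SNHG12 to 0.15 for SNHG15, and the interval of SNHG16 was -0.18 to 0.27. In order of mean level, SNHG1 thus stood at 243 ± 17.9 CPM with both drugs, 314.7 ± 35.03 CPM with DNR, 378 ± 62.3 CPM with ML-792 and 385 ± 8.91 CPM with DMSO, where the last pair did not differ beyond its spread.

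Summed over the 10 members, host transcripts took 1185 to 1458 CPM in ML-792+DNR libraries and 1215 to 1538 CPM in DNR libraries, against 1565 to 1649 CPM in ML-792 libraries and 1558 to 1627 CPM in DMSO libraries. GAS5 made up 33.5% to 39.9% of the members' reads in ML-792+DNR libraries and 33.2% to 38.2% in DNR libraries, against 29.1% to 31.3% with ML-792 and 29.3% to 32.5% with DMSO. The share of GAS5 was thus higher in every DNR-treated library than in any other, while its own CPM overlapped between all groups. Without GAS5 the sum was 769 to 902 CPM with both drugs and 788 to 1028 CPM with DNR, against 1082 to 1165 CPM with ML-792 and 1086 to 1119 CPM with DMSO.

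**Figure D3:**
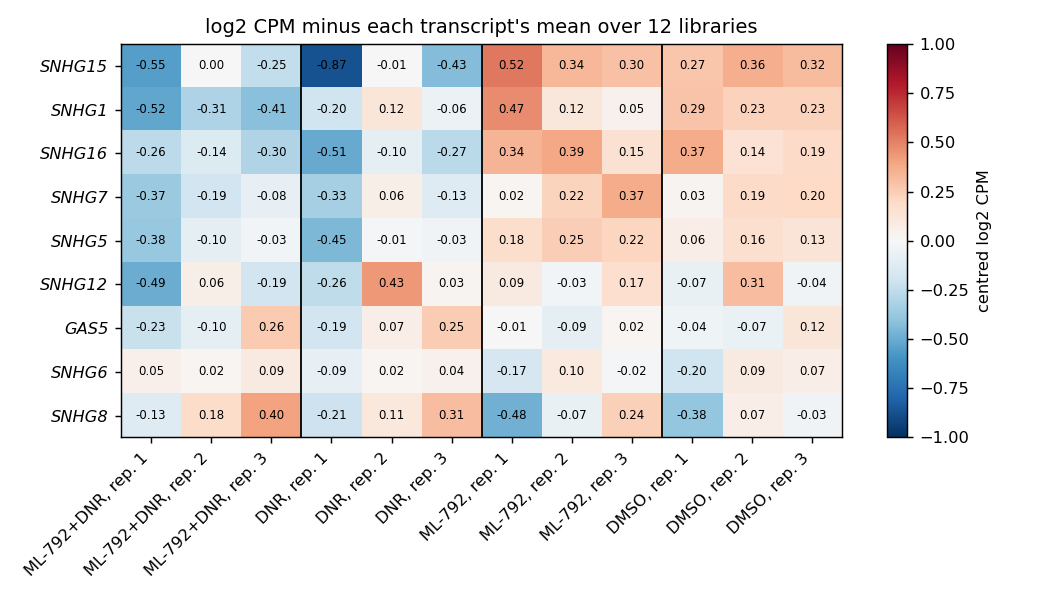
Log2 CPM of each measured host minus its mean over the 12 libraries (rows, transcripts; columns, libraries in the order ML-792+DNR, DNR, ML-792, DMSO, with 3 replicates each), blue below and red above the mean. SNHG15, SNHG1, SNHG16, SNHG7 and SNHG5 are mostly blue with DNR and red without it, and DNR replicate 1 holds the lowest value of the map, -0.87 for SNHG15.

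Across the 12 libraries the members fell into more and less similar pairs, which is given as a description, since the libraries share 4 treatments and the depth and composition of each library. Pearson's r of log2 CPM was 0.93 between SNHG15 and SNHG16, 0.92 between SNHG5 and SNHG15 and 0.91 between SNHG5 and SNHG7. SNHG6 and SNHG8 had an r of 0.72 with each other and of -0.49 to -0.42 with SNHG1. GAS5 had an r of -0.04 with SNHG16 and of 0.11 with SNHG1. Outside the members, the 5 tested genes closest to the members' mean profile included SNX18P7 (r = 0.97), ZNF286A (0.95), LOC284454 (0.94) and MICALCL (0.94) over the same libraries. SNX18P7 and MICALCL averaged 0.50 and 0.33 CPM, near the limit of the count filter.

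Related gene groups were counted in the same fits. Over all 13696 genes tested, 1953 rose and 2155 fell with DNR alone. These counts were 2328 and 2515 in ML-792+DNR against DMSO, and 2237 and 2389 in ML-792+DNR against ML-792. Among 11 tested noncoding snoRNA hosts other than the members, 1 rose and 0 fell with DNR alone, which was SNHG9 (log2 fold change 1.00, adjusted p = 0.00245), and their median was 0.07. The share that passed with DNR alone was 9.09%, against 30.0% of all genes. In ML-792+DNR against ML-792, 2 rose, SNHG9 (0.76) and SNHG21 (0.44), and 0 fell. With the replicate block 3 rose and 1 fell in ML-792+DNR against ML-792. Leaving out ML-792+DNR replicate 1 or 3 or ML-792 replicate 1 or 2 left 1 that rose. In replicates 2 and 3 alone 1 rose and 1 fell with DNR, and 0 passed in ML-792+DNR against ML-792.

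Among 33 tested protein-coding snoRNA hosts, 4 rose and 7 fell with DNR, and 5 rose and 9 fell in ML-792+DNR against ML-792. The shares that passed were 33.3% and 42.4%, against 30.0% and 33.8% of all genes. EIF4A2, an RNA helicase subunit of the translation initiation machinery whose introns hold several snoRNAs, averaged 168 ± 47.1 CPM in DNR libraries and 482 ± 20.3 CPM in DMSO libraries (-1.52 ± 0.19, adjusted p = 6.93e-05). RABGGTB, a subunit of the enzyme that attaches lipids to Rab proteins, averaged 148 ± 37.7 CPM with DNR and 280 ± 20.5 CPM with DMSO (-0.92 ± 0.19, adjusted p = 0.00272). Counts of protein-coding hosts that rose were the less stable: without DNR replicate 1, 0 rose and 4 fell with DNR, without DMSO replicate 3, 0 rose and 7 fell, and without DMSO replicate 1, 1 rose and 6 fell. In ML-792+DNR against ML-792, 1 rose and 6 fell without ML-792+DNR replicate 1, and 2 rose and 6 fell without ML-792 replicate 1. In replicates 2 and 3 alone, 1 rose and 5 fell with DNR, and 0 rose and 4 fell in ML-792+DNR against ML-792.

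Ribosomal protein hosts that passed were all higher with DNR. Of 24 tested, 3 rose and 0 fell with DNR alone (median 0.19), 17 rose and 0 fell in ML-792+DNR against DMSO (median 0.30), and 8 rose and 0 fell in ML-792+DNR against ML-792 (median 0.23). The shares that passed were 12.5%, 70.8% and 33.3%, against 30.0%, 35.4% and 33.8% of all genes. RPS20 changed by 0.28 ± 0.08 (adjusted p = 0.0208) and RPS12 by 0.27 ± 0.09 (adjusted p = 0.029) with DNR. RPS20 lost its call without DNR replicate 3 or DMSO replicate 1 or 3, and RPS12 without any 1 of the DNR libraries or DMSO replicate 1 or 3. Of 26 other TOP messengers, 2 rose and 1 fell with DNR and 14 rose and 1 fell in ML-792+DNR against DMSO. That is 11.5% and 57.7% of them, against 30.0% and 35.4% of all genes. EEF1D, a translation elongation factor subunit, changed by 0.41 ± 0.13 (adjusted p = 0.028) and the initiation factor gene EIF4B by -0.44 ± 0.12 (adjusted p = 0.0129) with DNR. EIF4B lost its call without DNR replicate 1 (adjusted p = 0.0572), and EEF1D without any 1 of the DNR libraries or DMSO replicate 1 or 3 (0.0521 to 0.157). In replicates 2 and 3 alone neither passed (0.179 for EIF4B and 0.128 for EEF1D). These counts moved when single libraries or replicate 1 were left out, and why they did was not tested. Calls over all genes also dropped in replicates 2 and 3 alone. With DNR, 885 of 13758 genes rose and 1026 fell there, against 1953 and 2155 of 13696 with all libraries. In ML-792+DNR, 881 rose and 1251 fell against DMSO, and 759 rose and 996 fell against ML-792. In replicates 2 and 3 alone, 0 ribosomal protein hosts passed in any of the 3 comparisons, and of the other TOP messengers 0 passed with DNR and 1 rose and 0 fell in ML-792+DNR against DMSO. Of ribosomal protein hosts in ML-792+DNR against DMSO, 2 rose without ML-792+DNR replicate 1, 10 without ML-792+DNR replicate 3, 3 without DMSO replicate 1 and 6 without DMSO replicate 3. In ML-792+DNR against ML-792, 0 rose without ML-792+DNR replicate 1, 1 without ML-792 replicate 1, 3 without DMSO replicate 3 and 4 without replicate 3 of either group compared, whereas 18 rose with the replicate block. Of the other TOP messengers in ML-792+DNR against DMSO, 2 rose without ML-792+DNR replicate 1, 6 without ML-792+DNR replicate 3, 1 without DMSO replicate 1 and 4 without DMSO replicate 3. With DNR alone, 0 ribosomal protein hosts rose without DNR replicate 3 or DMSO replicate 1 or 3, and 1 without DNR replicate 1 or 2. Of the other TOP messengers with DNR alone, 0 passed without DNR replicate 1, 0 rose and 1 fell without DNR replicate 3 or DMSO replicate 1 or 3, and 4 rose and 1 fell without ML-792 replicate 1.

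Among 21 nonsense-mediated decay factors, whose pathway degrades spliced snoRNA hosts, 3 rose and 3 fell with DNR, and 4 rose and 6 fell in ML-792+DNR against DMSO and against ML-792. The share that passed was 28.6% with DNR, against 30.0% of all genes. It was 47.6% in each of the others, against 35.4% and 33.8% of all genes. SMG8, a regulator of the SMG1 kinase, averaged 83.2 CPM with DNR and 50.2 CPM with DMSO (0.73 ± 0.09, adjusted p = 5.59e-05). SMG6, the endonuclease of the pathway, averaged 17.2 CPM with DNR and 27.2 CPM with DMSO (-0.66 ± 0.09, adjusted p = 0.000137). Both kept their calls without any 1 library and in replicates 2 and 3 alone, whereas the count of the list in ML-792+DNR against ML-792 was then 3 that rose and 1 that fell. Among 19 snoRNP core and assembly factors 1 rose, NOLC1 (0.35 ± 0.12, adjusted p = 0.0386), and 1 fell, NUFIP1 (-0.39 ± 0.10, adjusted p = 0.0108), with DNR, and neither passed in replicates 2 and 3 alone. NOLC1 lost its call without ML-792+DNR replicate 1, DNR replicate 1 or 2 or any 1 of the DMSO libraries (adjusted p 0.0523 to 0.169) and NUFIP1 without DNR replicate 3 (0.0583), while 3 rose and 1 fell without ML-792 replicate 1. ML-792 alone changed 0 genes of any of these lists by edgeR.

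**Figure D4:**
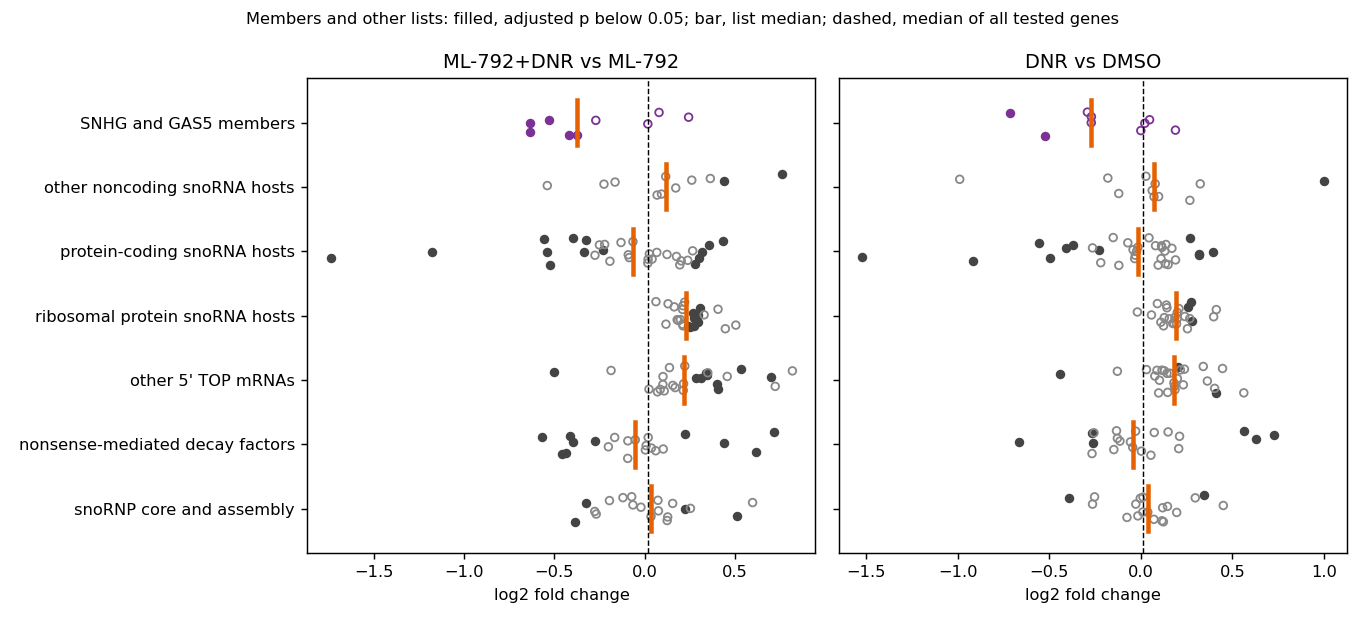
Log2 fold change (horizontal axis) of each tested gene of the members and of 6 other lists (rows), in ML-792+DNR against ML-792 (left) and DNR against DMSO (right), filled where the adjusted p was below 0.05, with the list median as a bar and the median of all tested genes as a dashed line. The medians of the members are -0.37 and -0.27, and those of the ribosomal protein hosts are 0.23 and 0.19.

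Neighbouring genes bear on how the counts are read, because it is not stated whether the counting used the strand. SNHG3 had 0 reads although its locus (chr1:28832492-28837404, plus strand) lies within the span of RCC1, the nucleotide exchange factor of the Ran GTPase, on the same strand. In the annotation used here 5.92% of the exonic bases of SNHG3 are shared with RCC1 exons, and whether reads from SNHG3 were counted under RCC1 was not tested. RCC1 stood at 289, 304 and 270.2 CPM in DNR libraries, against 399, 374 and 371 CPM in DMSO libraries, and fell (-0.41 ± 0.07, adjusted p = 0.000942). Exons on the opposite strand overlap 58.9% of the exonic bases of SNHG6 (MCMDC2), 37.6% of SNHG8 (PRSS12), 30.3% of SNHG7 (DIPK1B) and 28.5% of SNHG16 (ENSG00000284526). Values of these 4 members are therefore less certain, although PRSS12 averaged 0.21 CPM with DNR and 0.26 CPM with DMSO and MCMDC2 did not pass the count filter.

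In DNR against DMSO, SLC3A2, the divergent neighbour of SNHG1, changed by 0.19 ± 0.07 on the log2 scale and did not pass (adjusted p = 0.0555), although it did by DESeq2 (0.0411) and without ML-792+DNR replicate 2 (0.0402) or DNR replicate 2 (0.0481). TAF12, 4697 bases from SNHG12, rose (0.40 ± 0.13, adjusted p = 0.0328), as did ZBTB37, which overlaps GAS5 on the opposite strand without shared exonic bases (0.63 ± 0.20, adjusted p = 0.0317). Both missed the threshold in replicates 2 and 3 alone and without DNR replicate 1 or 3 or DMSO replicate 2 or 3, and TAF12 also without DMSO replicate 1. TRNAU1AP, MYO1G, MXRA7 and PRSS12 did not pass, with log2 changes of -0.33 to 0.12.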

How the data were processed

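HL-60 polyadenylated RNA was sequenced (stranded kit, single-end reads) in 12 libraries. The authors mapped reads to hg19 with TopHat2 2.1.1 and Bowtie2 2.3.5.1 and HTSeq 0.11.1 gave reads per gene, of which the deposited raw counts were used as they stand. The authors' normalized values and their table of DESeq2 fold changes and p-values were not used. The sources used here do not state the strand setting. The 5 counter lines were left out, and 65.3% to 67.4% of records lay in genes.

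Counts were tested with edgeR 4.0.16 in R 4.3.3 (quasi-likelihood, TMM, filterByExpr with a minimum count of 10 and a minimum total of 15, a group term, all 12 libraries). The code of this test was run on simulated counts with known changes. These held no effect of replicate number, so the test was not checked under such an effect. SE were derived from the F statistic. Alternatives were DESeq2 1.42.0, limma voom (limma 3.58.1), other scaling and filters, the groups compared alone, a replicate block, each library left out and replicates 2 and 3 alone. No library was a copy of another of its group. Coordinates are GRCh37 (GENCODE), and start windows and host names are RefSeq GRCh38.p14.

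Replicates came from independent experiments. Deviations from group means correlated at 0.0722 to 0.587 in 18 same-numbered pairs and at -0.498 to 0.0913 in 36 others. Since deviations cancel within a group, the values of the others depend on those of the same-numbered pairs. Every same-numbered pair passed 0.1 in 4 comparisons, where the numbers may pair the samples, but not in DNR against DMSO or the interaction. The reported calls nevertheless come from the fit with a group term only in all comparisons. Pairing entered only through the replicate block, given as an alternative.

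Members and lists were chosen with earlier results of these data known. Named besides the members were, of each list, the 2 called genes with the largest change in DNR against DMSO at a mean of at least 5 CPM, tested genes overlapping or within 5 kb of a member, and the 5 genes most like the members' mean; some genes that this rule takes are not reported here. SNHG9, SNHG21 and the order of SNHG1 levels were added after their values were seen. With 3 against 3 libraries an exact permutation test could not reach 0.05, and none was used.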

Additional observations from a re-analysis of the deposited data

How the results depend on the processing

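The same members were called by DESeq2 and limma voom as by edgeR in all 6 comparisons. Of 233 alternatives run on the 11 member calls, 216 kept the call and direction and 17 lost it, and 23 alternatives gained a call elsewhere. In DNR against DMSO, 4 members fell with no count filter (SNHG1, SNHG5, SNHG15 and SNHG16), 5 with the replicate block, 5 with the DNR effect averaged over both backgrounds, an alternative chosen after seeing the data, and 1 in replicates 2 and 3 alone, against 2 as reported. SNHG1 passed there with unscaled library sizes (adjusted p = 0.0415) and with the groups compared alone (0.0185) as well, and SNHG5 passed in ML-792+DNR against DMSO with no count filter (0.0354) and with the groups alone (0.0405). The block shares only replicate numbers there, and its 5 were SNHG1, SNHG5, SNHG7, SNHG15 and SNHG16. Of all 13696 genes, 2989 fell with the block and 3309 with the averaged effect, against 2155 as reported. With no count filter 2168 of 24018 genes fell, and in replicates 2 and 3 alone 1026 of 13758 did. In replicates 2 and 3 alone 2 members fell in ML-792+DNR against DMSO, as did 1251 of 13758 genes. SNHG1 was the 1 member that passed in ML-792+DNR against DNR with no count filter. A minimum of 2-fold left 0 members in every comparison. Leaving out 1 library at a time gave 2 to 5 members in DNR against DMSO, 2 to 5 in ML-792+DNR against DMSO and 2 to 5 in ML-792+DNR against ML-792. The number of all genes that fell moved as well. It ran from 1386 to 2355, from 1836 to 2701 and from 1673 to 2612 in these comparisons. With all libraries it was 2155, 2515 and 2389. The block changed no member call other than those given in the text and here. The cause of these changes was not tested.

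No called value changed sign. Of 1143 log2 values recomputed, 83 changed sign, all of members called under neither setting and none beyond 0.189 in size. Without 1 library at a time, members with such a change gave these ranges. In DNR against DMSO they ran -0.11 to 0.041 for SNHG6, -0.19 to 0.17 for SNHG12 and -0.056 to 0.15 for GAS5. In ML-792 against DMSO they ran -0.17 to 0.053 for SNHG1, -0.11 to 0.047 for SNHG6, -0.021 to 0.16 for SNHG7, -0.16 to 0.19 for SNHG8, -0.070 to 0.14 for SNHG12, -0.0030 to 0.11 for SNHG15 and -0.065 to 0.028 for GAS5. In ML-792+DNR against DMSO they ran -0.037 to 0.11 for SNHG6 and -0.17 to 0.077 for GAS5. In ML-792+DNR against DNR they ran -0.14 to 0.092 for SNHG5, -0.18 to 0.021 for SNHG7, -0.051 to 0.21 for SNHG8, -0.049 to 0.39 for SNHG15, -0.054 to 0.15 for SNHG16 and -0.21 to 0.038 for GAS5. In ML-792+DNR against ML-792 they ran -0.14 to 0.11 for GAS5. In the interaction they ran -0.11 to 0.25 for SNHG8, -0.12 to 0.32 for SNHG15, -0.11 to 0.090 for SNHG16 and -0.18 to 0.067 for GAS5. With library sizes not scaled by TMM the values were -0.031 for SNHG6 in DNR against DMSO, -0.0076 for SNHG12 in DNR against DMSO, -3.6e-05 for SNHG8 in ML-792 against DMSO, -0.025 for SNHG12 in ML-792 against DMSO and 0.0054 for SNHG16 in the interaction. With no count filter the values were -0.013 for SNHG6 in DNR against DMSO, -0.0093 for SNHG12 in ML-792 against DMSO and 0.012 for SNHG16 in the interaction. With the groups compared alone the value was -0.0051 for SNHG6 in DNR against DMSO. With replicates 2 and 3 only the values were -0.061 for SNHG6 in DNR against DMSO, -0.068 for SNHG12 in ML-792 against DMSO, -0.025 for SNHG15 in ML-792 against DMSO, -0.031 for SNHG6 in ML-792+DNR against DMSO, 0.053 for GAS5 in ML-792+DNR against DMSO and -0.033 for SNHG16 in ML-792+DNR against DNR. With DNR effect averaged over both backgrounds the value was -0.12 for SNHG12 in DNR against DMSO. With ML-792 effect averaged over both backgrounds the values were 0.022 for SNHG6 in ML-792 against DMSO, -0.0062 for SNHG7 in ML-792 against DMSO and -0.14 for SNHG12 in ML-792 against DMSO. With limma voom the value was 0.0013 for SNHG16 in the interaction.

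Member counts were high enough (at least 1164 reads a library in the 9 measured) that the spread between replicates, and not depth, mainly set the width of the intervals. The fit estimated this spread from all 12 libraries together, not from the groups compared alone. For SNHG3, 3 counts, the limit that a count of 0 allows, correspond to 0.0646 to 0.105 CPM a library, which covers counting error only.

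Counts of the related lists moved too. With DNR, other noncoding hosts numbered 1 that rose and 1 that fell with no count filter or the groups alone and 2 and 1 with the block. Ribosomal protein hosts that rose numbered 8 with the block and 5 with the groups alone. Other TOP messengers numbered 6 that rose and 1 that fell with no count filter, 7 and 1 with the block and 4 and 1 with the groups alone, and EEF1D missed the threshold with unscaled library sizes (0.0606). Nonsense-mediated decay factors numbered 5 and 5 with the block, and snoRNP factors 2 and 2 with no count filter and 3 and 3 with the block. SLC3A2 passed with a mean of at least 1 CPM (0.0441) and with the block (0.0135), and ZBTB37 missed the threshold with no count filter (0.0661). With unscaled library sizes, 11 ribosomal protein hosts rose in ML-792+DNR against DMSO. Relative to ML-792, 13 rose with both drugs by DESeq2 and 0 with the groups alone, where 1 other noncoding host rose and 1 protein-coding host rose and 7 fell.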
